A study of Rattus norvegicus with 28 samples.

Results

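NF-κB is a family of dimeric transcription factors that drives inflammatory genes. In resting cells the dimers are held in the cytoplasm by IκB proteins, and IκB kinase marks these inhibitors for degradation, which frees the dimers to enter the nucleus. Several genes of the system are themselves NF-κB targets, so that activation is followed by new synthesis of the inhibitor. In arteries, the pathway is known for its link to disturbed flow and to adhesion molecules on the endothelium. The genes examined here were chosen by symbol, as 10 genes for NF-κB subunits, their inhibitors and 1 kinase. Of these, 7 had a probe set that carried their symbol alone, with 1 probe set each, so that the set comprised 7 of 29214 probe sets on the array. They were the subunit genes Rela, Nfkb1 and Nfkb2, the inhibitor genes Nfkbia, Nfkbib and Nfkbie, and the kinase gene Ikbkb. Relb, Rel and Tnfaip3 had no probe set that carried their symbol alone in the annotation used here and were not analysed here.

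The study compared the low wall shear stress (WSS) region with the high WSS region of the aortic arch in untreated male Wistar rats. The low WSS region lay on the inner side of the arch, towards its distal end, where the flow was disturbed, and the high WSS region lay on the outer side, where the flow was uniform. Pieces of the full wall from 5 animals were pooled for each sample, and 70 animals gave 14 low WSS pools and 14 high WSS pools. The pools were made as 14 pairs and were paired here by the replicate number in their titles, with 1 array (Affymetrix Rat Gene 1.1 ST) per pool. Levels are log2 values after RMA, which brings the arrays to a common distribution, so a change in the total mRNA per cell cannot be seen. In whole wall, fewer cells of a type and less RNA per cell cannot be told apart. All 7 members had a mean level above the minimum of 4 and were among the 13383 probe sets tested. Differences are low minus high WSS on the log2 scale from limma with the pair as a block, and a gene is said to have risen or fallen at a Benjamini-Hochberg adjusted p under 0.05 over all probe sets tested.

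Because NF-κB controls part of its own circuit, the sequences around the annotated start sites of the members were read for the κB consensus, the degenerate motif that NF-κB dimers bind. The sequences are from RefSeq (GRCr8), and 6 of the 7 genes had one. The window ran from 250 bases before to 50 bases after the start, and both strands were read. The consensus was present in 4 of the 6 members, Nfkb1, Nfkb2, Nfkbia and Nfkbie, and in 7.51% of 33469 promoters of this length. The capitals mark the match in the 4 sequences below, which are printed to show the match in each of these members.
Nfkb1, chr2:226805438-226805484, minus strand: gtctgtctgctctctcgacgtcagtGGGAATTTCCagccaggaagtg
Nfkb2, chr1:255108329-255108388, plus strand: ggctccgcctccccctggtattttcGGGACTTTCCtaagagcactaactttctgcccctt
Nfkbia, chr6:78597069-78597128, minus strand: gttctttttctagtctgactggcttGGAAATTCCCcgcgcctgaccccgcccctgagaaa
Nfkbie, chr9:22948002-22948061, minus strand: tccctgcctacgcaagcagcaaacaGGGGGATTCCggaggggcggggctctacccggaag

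In Nfkb2 the match began 20 bases before the start, and in Nfkb1 it began at base 4 of the transcript. In Nfkbia it began 31 bases before the start and lay on the opposite strand, and in Nfkbie it began 164 bases before the start. The start used for Nfkb1, Nfkb2 and Nfkbia lies inside the annotated gene, 435, 2364 and 235 bases from its outer end, so other starts of these genes were not read.

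No match to the consensus was found in Rela and Nfkbib, which says only that these letters are not in this window. The 250 bases before the start of these genes are printed for comparison, with the GC box GGGCGG, a site for Sp-family factors, in capitals on either strand.
Rela, chr1:212354086-212354335, plus strand: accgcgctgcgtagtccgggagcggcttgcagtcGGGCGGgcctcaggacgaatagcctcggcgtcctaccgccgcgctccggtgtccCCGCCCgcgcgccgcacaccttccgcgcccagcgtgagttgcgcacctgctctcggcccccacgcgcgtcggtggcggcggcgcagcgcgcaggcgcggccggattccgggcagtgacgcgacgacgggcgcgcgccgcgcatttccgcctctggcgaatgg
Nfkbib, chr1:93181388-93181637, minus strand: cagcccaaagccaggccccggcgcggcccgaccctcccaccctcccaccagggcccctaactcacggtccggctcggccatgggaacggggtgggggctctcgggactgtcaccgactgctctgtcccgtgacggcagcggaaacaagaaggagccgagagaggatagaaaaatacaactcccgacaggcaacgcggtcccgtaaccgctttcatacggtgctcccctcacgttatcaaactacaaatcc

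The GC box was present in 5 of the 6 members, all except Nfkbib, and in 33.1% of all promoters. A match is a description of the sequence and was not tested as a site.

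Of the 7 members, 3 fell in low WSS, namely Rela, Nfkb1 and Nfkbib, and 0 rose. Before adjustment, limma gave p under 0.05 for 5 lower and 0 higher members, and for 3037 lower and 2798 higher of 11750 genes. The methods' paired t-test called 3 members lower and 0 higher after adjustment, and 2482 genes lower and 2251 higher. Changes of this kind were common in these arrays, since 42.2% of all probe sets passed the adjusted limma test, with 21.7% of all lower and 20.5% of all higher in low WSS. The share of members that changed in either direction was 42.9%, which is near the background. When arrays were centred on their medians, 62.4% of the called probe sets were higher in low WSS, against 48.5% without centring, and 2 members were called. The median difference of the 7 members was -0.113, compared with -0.005 over 11750 genes tested. All these differences were small. The largest in size, for Nfkbib, amounted to a ratio of 0.844 of low to high WSS. None of the 7 passed a Bonferroni threshold of 0.05 in limma over the probe sets tested here, which 7.5% of all probe sets passed. The methods applied Bonferroni correction to a paired t-test instead.

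Rela encodes p65, the subunit that carries the main activation domain of the canonical dimer. Its level ran from 9.91 to 10.50 in the low WSS pools with a median of 10.30, and from 10.17 to 10.69 in the high WSS pools with a median of 10.48. The groups overlapped, although 6 low WSS pools lay below every high WSS pool and 7 high WSS pools lay above every low WSS pool. The mean was 10.23 ± 0.19 in low WSS and 10.47 ± 0.14 in high WSS (SD, n = 14 each). Rela fell by 0.23 (SE 0.04, limma adjusted p = 0.000446), a ratio of 0.851. It was lower in low WSS in 12 of 14 pairs, with pair differences just above 0 (0.00 after rounding) in pairs 1 and 6 and of -0.47 in pairs 9 and 13. The call held in all 24 alternatives that were run, with differences of -0.20 to -0.28 and adjusted p from 8.39e-05 to 0.0163.

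**Figure D1:**
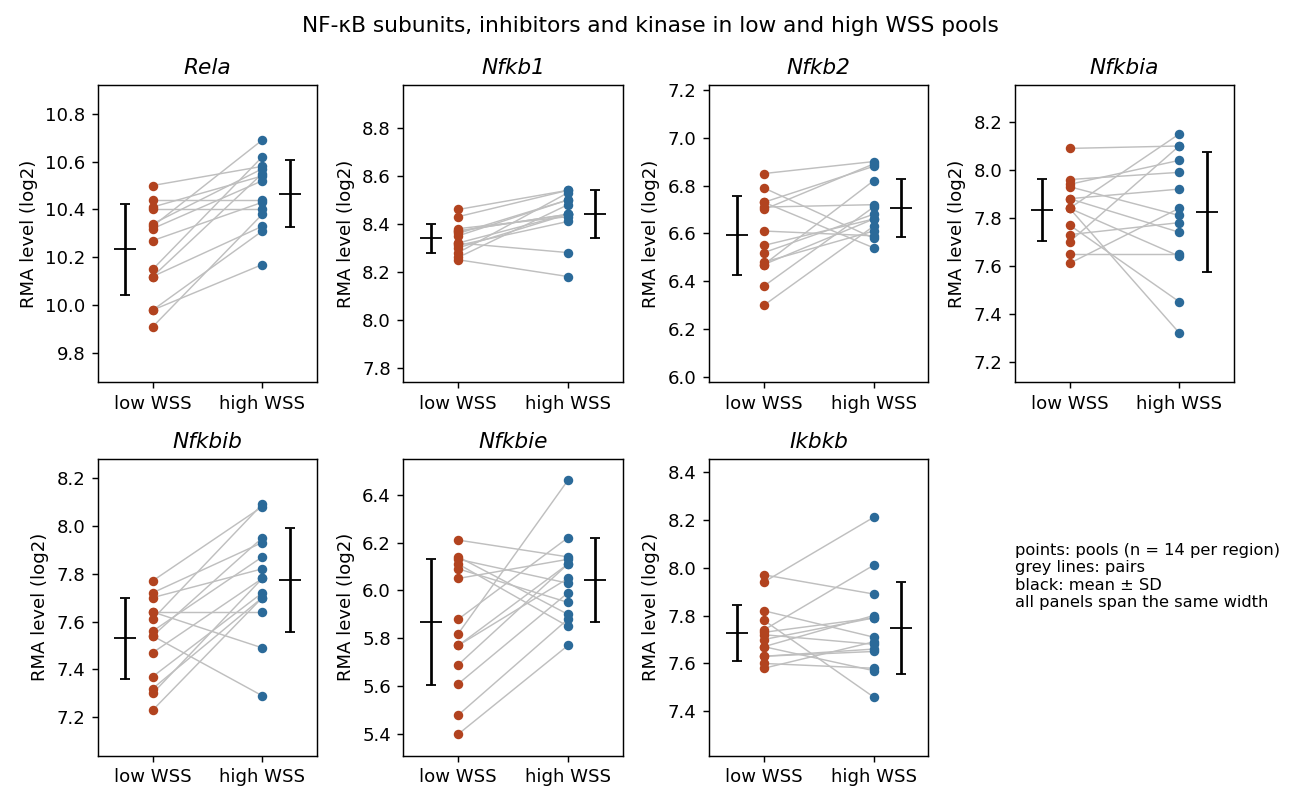
Level (RMA, log2) of the 7 measured NF-κB genes in the low and high WSS pools, with 14 pools per region as points, grey lines between paired pools and black bars for the mean ± SD. The pools of both regions overlap for every gene, and the lines slope down towards low WSS in 12 of 14 pairs for Rela and Nfkb1.

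Nfkb1 encodes p105, the precursor of p50, which pairs with p65. Its levels varied little, from 8.25 to 8.46 in the low WSS pools (median 8.335) and from 8.18 to 8.54 in the high WSS pools (median 8.44). Pools 4 and 5 of the high WSS region, at 8.18 and 8.28, stood below the other high WSS pools, and in these pairs alone Nfkb1 was higher in low WSS. Nfkb1 fell by 0.098 (SE 0.032, limma adjusted p = 0.0212), a ratio of 0.934. The call ended with arrays centred on their medians, at -0.060 (adjusted p = 0.171), with the adipocyte list as a covariate, at -0.085 (SE 0.035, adjusted p = 0.0573), and with the smooth muscle genes Tagln and Cnn1 as covariates, at -0.11 (SE 0.05, adjusted p = 0.0994). With Tagln and Cnn1 the difference was no smaller and its SE was larger. The call held in the other 21 alternatives, with adjusted p from 0.00438 (the methods' paired t-test) to 0.0486 (limma in pairs 4 to 14). With each pair left out, limma gave adjusted p from 0.0111 to 0.0474, close to the threshold at the upper end.

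Nfkb2 encodes p100, which is processed to p52 in the non-canonical pathway and restrains NF-κB dimers before it is processed. Its level ran from 6.30 to 6.85 in low WSS (median 6.58) and from 6.54 to 6.90 in high WSS (median 6.67), and 6 low WSS pools lay below all high WSS pools. The mean was 6.59 ± 0.16 in low WSS and 6.70 ± 0.12 in high WSS (SD, n = 14 each). The difference was -0.11 (SE 0.05, limma adjusted p = 0.0645), negative in 11 of 14 pairs, with positive differences of 0.19, 0.02 and 0.21 in pairs 1, 4 and 5. It missed the threshold, but without pair 1 it was -0.14 (adjusted p = 0.0227) and without pair 5 also -0.14 (adjusted p = 0.0231). Both of these pairs had positive differences, so leaving either out had to make the difference more negative.

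Of the 3 classical inhibitor genes, 1 passed the test, and differences between these genes were not tested. Nfkbia encodes IκBα, the inhibitor that NF-κB rapidly induces again after its degradation. Its level ran from 7.61 to 8.09 in low WSS (median 7.84) and from 7.32 to 8.15 in high WSS (median 7.83). The high WSS pools enclosed the low WSS pools on both sides, with pools 1 and 3 of high WSS, at 7.45 and 7.32, below all low WSS pools. The mean was 7.83 ± 0.13 in low WSS and 7.82 ± 0.25 in high WSS (SD, n = 14 each). The difference was 0.010 (SE 0.062, limma adjusted p = 0.911), with a 95% interval of -0.12 to 0.14. It was 0.52 in pair 3 and -0.40 in pair 12, and without pair 3 it was -0.029.

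Nfkbib encodes IκBβ, which is resynthesised more slowly than IκBα. Its level ran from 7.23 to 7.77 in low WSS (median 7.55) and from 7.29 to 8.09 in high WSS (median 7.78). All 14 low WSS pools lay below the high WSS median, and 8 high WSS pools lay above every low WSS pool. High WSS pools 6 and 7, at 7.29 and 7.49, were the exceptions at the low end, and their pairs had differences of 0.25 and 0.15. Nfkbib fell by 0.24 (SE 0.06, limma adjusted p = 0.00311), a ratio of 0.844, and was lower in 11 of 14 pairs. With Tagln and Cnn1 as covariates the difference was -0.12 (SE 0.07, adjusted p = 0.254), and the call held in the other 23 alternatives.

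Nfkbie encodes IκBε, another inhibitor that NF-κB can induce. Its level ran from 5.40 to 6.21 in low WSS (median 5.85) and from 5.77 to 6.46 in high WSS (median 6.04). Low WSS pools 1 to 5 held the upper end of their region, from 6.09 to 6.21, whereas low WSS pools 6 to 14 ran from 5.40 to 6.05. The pair differences split in the same places, at 0.26, 0.10, 0.24, 0.08 and 0.14 in pairs 1 to 5, and between -0.09 and -0.65 in all of pairs 6 to 14. This split was seen in the data and was not tested. Over all pairs the difference was -0.18 (SE 0.07, limma adjusted p = 0.0570), which missed the threshold. In pairs 4 to 14 alone it was -0.28 (SE 0.06, adjusted p = 0.0033), and it passed as well when any of pairs 1 to 5 was left out, at -0.19 to -0.21. These runs drop pairs in which Nfkbie was higher in low WSS. A more negative difference was thus fixed in advance, and the runs add no support for a fall. Nfkbie also passed with the adipocyte list as a covariate, at -0.21 (SE 0.07, adjusted p = 0.0280), where Nfkb1 lost its call, and with arrays quantile normalized again, at -0.17 (SE 0.06, adjusted p = 0.0293).

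**Figure D2:**
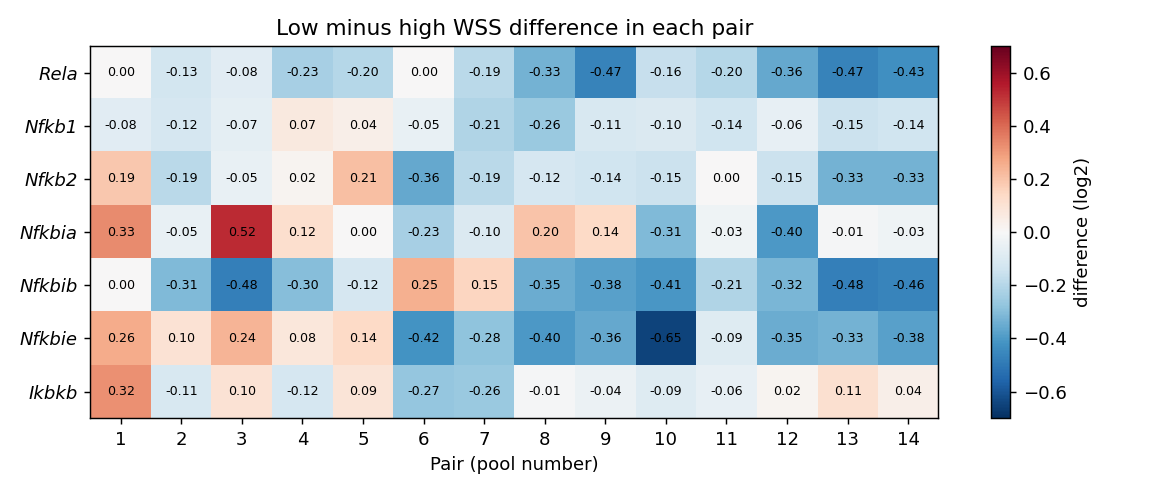
Low minus high WSS difference (log2) of each NF-κB gene in each of the 14 pairs, with red for higher and blue for lower in low WSS. Nfkbie is red in pairs 1 to 5 and blue in pairs 6 to 14, while Rela is lower in low WSS in 12 pairs and at 0.00 after rounding in pairs 1 and 6.

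Ikbkb encodes IKKβ, the catalytic subunit that phosphorylates the inhibitors in the canonical pathway. Its level ran from 7.58 to 7.97 in low WSS (median 7.71) and from 7.46 to 8.21 in high WSS (median 7.70). High WSS pools 6 and 7 were the highest of all, at 8.21 and 8.01, which are the same pools in which Nfkbib was lowest in that region. The difference was -0.020 (SE 0.044, limma adjusted p = 0.736), with a 95% interval of -0.11 to 0.07, and turned to 0.018 when arrays were centred on their medians. Pair 1 stood apart at 0.32.

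No member showed the same direction in all 14 pairs, as 9.74% of all probe sets did, and none had regions without overlap, as 1.7% did.

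**Figure D3:**
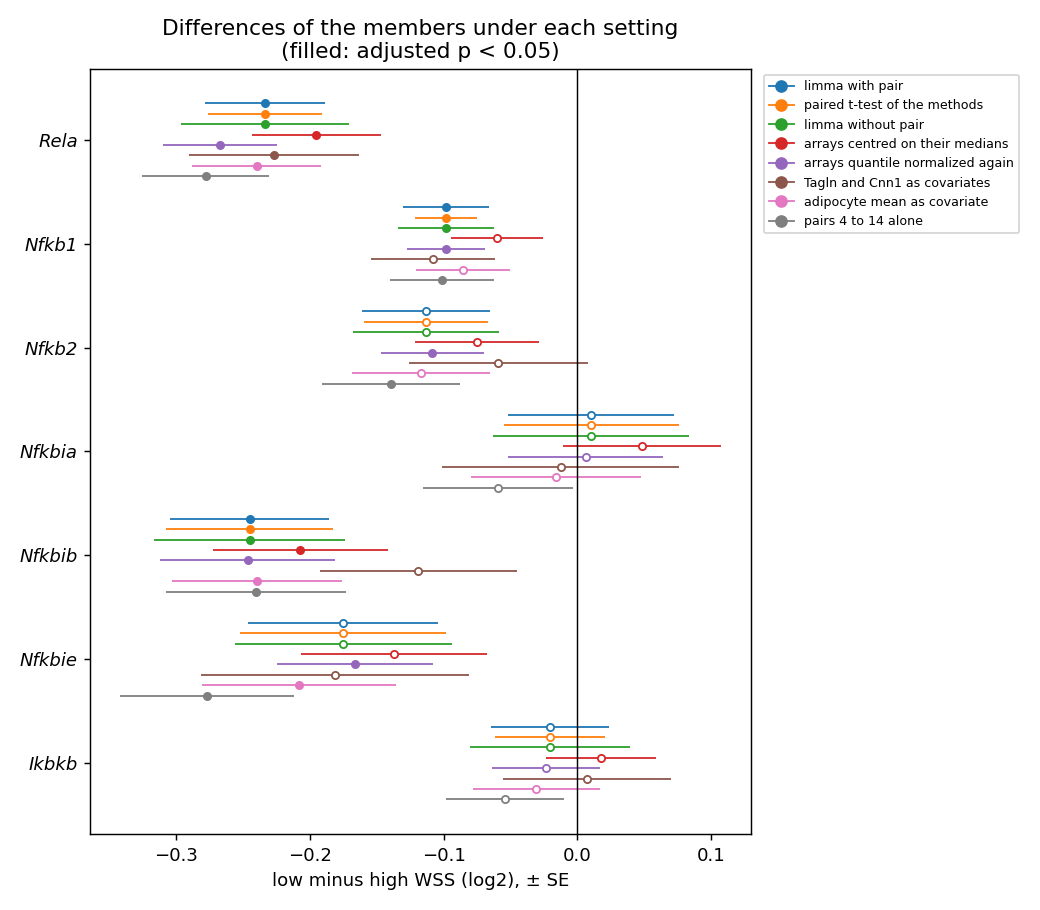
Low minus high WSS difference (log2, ± SE) of the 7 NF-κB genes with the pair as a block and in 7 other settings, with filled points where the adjusted p was under 0.05. Rela is filled in every setting shown, Nfkbib in all but the one with Tagln and Cnn1 as covariates, and Nfkbia and Ikbkb in none.

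The members were also compared among themselves over the 28 pools, after the mean of the region was taken from each value. These correlations are given as a description, since paired pools share animals and their arrays share a normalization. Nfkbie varied with Nfkb2 (r = 0.61) and with Rela (r = 0.59), and Rela with Nfkb2 (r = 0.43) and Nfkbib (r = 0.39). Nfkb1 had r between -0.20 and 0.11 with each of the other members, and Nfkbia reached at most 0.32, with Nfkbie. So the pools with more Rela tended to be those with more Nfkbie, Nfkb2 and Nfkbib, and Nfkb1 did not follow them. Of the genes other than members, those most like Rela by the same measure were Atat1 (r = 0.87), Grik5 (r = 0.87) and Ltbp4 (r = 0.86). Atat1, a tubulin acetyltransferase gene, changed by -0.31 (SE 0.04, limma adjusted p = 2.93e-05) and Grik5, a kainate receptor subunit gene, by -0.25 (SE 0.05, adjusted p = 0.000663), while Ltbp4, a gene for a matrix protein that binds latent TGF-beta, had a difference of -0.055 (adjusted p = 0.196). The genes most like Nfkbia were Cd200 (r = 0.79), which encodes a surface glycoprotein that restrains myeloid cells, Slc1a7 (r = 0.77), which encodes a glutamate transporter, and Cdkn1b (r = 0.72), which encodes the cell cycle inhibitor p27. Cd200 had a difference of 0.080 (adjusted p = 0.465) and Slc1a7 of 0.057 (adjusted p = 0.603), as Nfkbia had of 0.010, while Cdkn1b changed by -0.21 (SE 0.04, adjusted p = 0.000195).

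Marker genes of other cell types moved with some members. Of 14 measured adipocyte genes, 2 were higher and 2 were lower in low WSS, and the methods' paired t-test called 0 higher and 2 lower. Their mean level ran from 5.54 to 8.64 in low WSS and from 5.55 to 8.68 in high WSS, with pair differences from -1.64 to 2.77 that were above 1.5 in pairs 1, 2, 3 and 7. Within regions, the adipocyte mean had r = -0.41 with Nfkb1 and r = 0.36 with Nfkbie. Of 20 measured myeloid genes, 8 were higher and 1 was lower, in all 45%, against 41.7% of all genes. Among the higher were Lcp1, an actin-bundling protein gene of blood cells, at 0.85 (SE 0.07) and Cd53, a tetraspanin gene of leucocytes, at 0.66 (SE 0.08). Named after their values were seen, Aif1 was the lower gene, at -0.13 (SE 0.04), and Cd163 at -0.27 and Mrc1 at -0.22 did not pass. The mean of the 20 myeloid genes ran from 6.09 to 6.80 in low WSS and from 6.00 to 6.69 in high WSS, and had r = 0.58 with Ikbkb and r = 0.49 with Nfkbie. Its pair differences were 0.64, 0.72, 0.49, 0.17 and 0.13 in pairs 1 to 5, the pairs in which Nfkbie was higher in low WSS, and -0.36 to 0.25 in the other pairs. Of 13 measured endothelial genes, 0 passed the test in limma, 0 had p under 0.05 before adjustment and 0 passed the methods' paired t-test. Their mean ran from 6.16 to 6.99 in low WSS and from 6.13 to 7.04 in high WSS. The endothelial mean had r = 0.54 with Nfkbie. Its pair differences were 0.68, 0.76, 0.81, -0.36 and -0.11 in pairs 1 to 5, and -0.64 to 0.29 in the other pairs. The endothelial genes Pecam1 and Kdr and the smooth muscle gene Acta2 had no probe set that carried their symbol alone in the annotation used here. Of 13 measured smooth muscle genes, 1 was higher and 6 were lower. Their mean, from 10.71 to 11.20 in low WSS and from 10.75 to 11.40 in high WSS, had r = 0.53 with Nfkb1 and r = -0.54 with Ikbkb. The smooth muscle genes with the smallest adjusted p were Ppp1r14a, an inhibitor of myosin phosphatase, at -0.40 (SE 0.04), and Myocd, a coactivator of contractile genes, at -0.37 (SE 0.05). Of 14 measured fibroblast genes, 5 were higher and 4 were lower (3 and 3 by the methods' paired t-test), with a mean from 9.79 to 10.42 in low WSS and from 9.88 to 10.48 in high WSS, and this mean had r = 0.48 with Ikbkb and r = 0.45 with Nfkbie. Of 15 listed genes of T, B and mast cells, 9 had mean levels below the minimum, among them Cd3d, Cd3e, Cd3g and Ms4a1, and 0 of the 4 tested passed in limma, with p under 0.05 before adjustment for 1 higher and 1 lower gene, and 0 passed the methods' paired t-test. The part of these cell types in the differences of the members was not tested, apart from the adipocyte and smooth muscle covariates given above. The smooth muscle covariates differed little between regions, with Tagln at 0.055 (limma adjusted p = 0.252) and Cnn1 at -0.0040 (adjusted p = 0.943). They do not stand for the 6 smooth muscle genes that were lower.

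The other genes of the pathway were taken from 5 lists, in which 78 of 102 genes were measured above the minimum. Of these, 21 rose and 11 fell in low WSS. In all, 41% of them changed, against 41.7% of all genes, of which 19.7% rose and 22% fell. Their median difference was 0.029. With arrays centred on their medians, 28 rose and 9 fell, and with Tagln and Cnn1 as covariates, 7 rose and 7 fell. In pairs 4 to 14 alone, 16 rose and 14 fell, and without the filter on level, 20 rose and 15 fell. Counted over every probe set that carried the symbol of a pathway gene alone, 21 rose and 14 fell.

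Among 11 genes of the other kinases and their scaffolds, 3 rose and 2 fell, with a median of 0.044. Map3k14, the kinase NIK that triggers processing of p100, fell by 0.25 (SE 0.05, limma adjusted p = 0.000803), in 14 of 14 pairs, to a level of 5.79 ± 0.12 in low WSS, against 6.05 ± 0.14 in high WSS (SD, n = 14 each). Tab3, which couples ubiquitin chains to the kinase TAK1, fell by 0.16 (SE 0.05). Ikbke, an IKK-related kinase of the interferon response, rose by 0.18 (SE 0.04), and so did its scaffold genes Azi2 by 0.24 (SE 0.05) and Tank by 0.17 (SE 0.05).

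Of 14 measured receptors and ligands, 3 rose and 2 fell, and 6 listed genes, all ligands, were below the minimum. Tlr4, the receptor for bacterial lipopolysaccharide, fell by 0.44 (SE 0.09, limma adjusted p = 0.00118), to 6.05 ± 0.25 in low WSS, against 6.49 ± 0.22 in high WSS (SD, n = 14 each), in 13 of 14 pairs. Tnfsf13b, which encodes the B cell factor BAFF, fell by 0.36 (SE 0.07). Il1rap, the co-receptor for interleukin 1, rose by 0.23 (SE 0.06), and Tlr2, a receptor for bacterial lipopeptides, by 0.14 (SE 0.04). Tnf, named after its values were seen, was close to the minimum, at 3.96 ± 0.18 in low WSS and 4.06 ± 0.23 in high WSS (SD, n = 14 each), with a difference of -0.099 (limma adjusted p = 0.131).

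Of 22 measured adaptors and ubiquitin ligases, 6 rose and 2 fell, with a median of 0.038. Tradd, the adaptor of TNF receptor 1, rose by 0.32 (SE 0.07) and Traf6, the ubiquitin ligase of the interleukin 1 and Toll-like receptor pathways, by 0.22 (SE 0.05). Skp1, a subunit of the ligase that marks phosphorylated IκB for degradation, rose by 0.30 (SE 0.05, limma adjusted p = 0.000237). In the other direction, Rnf31, the catalytic subunit of the linear ubiquitin ligase, fell by 0.16 (SE 0.04) and Ube2n, the ubiquitin-conjugating enzyme that works with Traf6, by 0.14 (SE 0.04).

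Of 10 measured genes of the other inhibitors and atypical IκB proteins, 4 rose and 0 fell, with a median of 0.086. Before adjustment, limma gave p under 0.05 for 5 higher and 0 lower genes, and the methods' paired t-test called 4 higher and 0 lower. Over all 11750 genes, 2798 were higher and 3037 lower before adjustment, and 2251 higher and 2482 lower by the paired t-test. Tnip2, a partner of the deubiquitinase A20, rose by 0.30 (SE 0.05, limma adjusted p = 5.83e-05), to 6.34 ± 0.11 in low WSS, against 6.04 ± 0.12 in high WSS (SD, n = 14 each). Nkiras1 and Nkiras2, small Ras-like proteins that bind IκB proteins, rose by 0.29 (SE 0.05) and 0.12 (SE 0.04). Nfkbiz, the nuclear IκBζ, rose by 0.12 (SE 0.04). Tnip2 and Nkiras1 were higher in low WSS in 14 of 14 pairs, whereas Nfkbib was lower in 11.

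Of 21 measured target genes, 5 rose and 5 fell, with a median of -0.064, and 6 were below the minimum, among them Il6, Sele and Cxcl2. Selp, which encodes P-selectin, rose by 0.95 (SE 0.09, limma adjusted p = 2.31e-07), to 5.58 ± 0.30 in low WSS, against 4.63 ± 0.23 in high WSS (SD, n = 14 each), in 14 of 14 pairs. Cflar, an inhibitor of caspase 8, rose by 0.23 (SE 0.03), also in 14 of 14 pairs. Ier3, an immediate early gene that counters cell death, fell by 0.49 (SE 0.06), and Ptgs2, which encodes cyclooxygenase-2, fell by 0.42 (SE 0.07) and was lower in all 14 pairs. Vcam1, the adhesion molecule, and Ccl2, the monocyte chemokine, are named because their values were seen. Vcam1 rose by 0.39 (SE 0.12, limma adjusted p = 0.0133), in 9 of 14 pairs, and Ccl2 fell by 0.56 (SE 0.12, adjusted p = 0.000917), in 13 of 14 pairs.

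**Figure D4:**
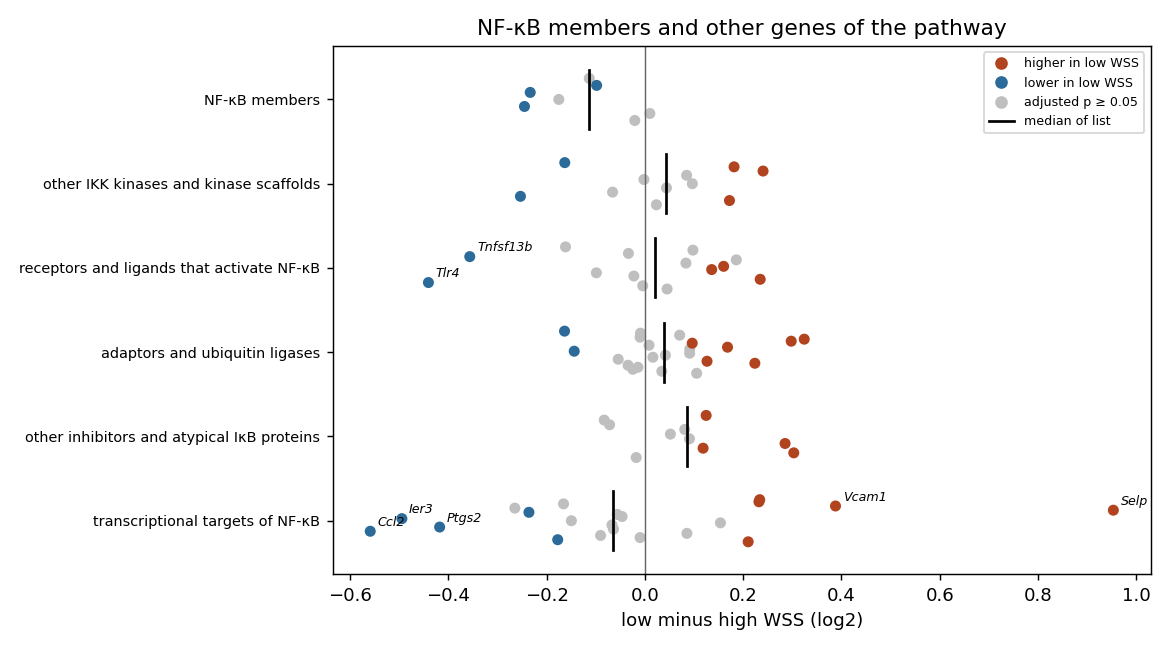
Low minus high WSS difference (log2) of the 7 NF-κB genes and of the other measured genes of the pathway by list, with black lines for the median of each list. Called genes lie on both sides of 0 in every list except the members (0 above) and the other inhibitors (0 below), and Selp lies farthest out at 0.95.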

How the data were processed

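The members and gene lists were chosen with earlier results of these data known. The authors deposited log2 levels of Affymetrix Rat Gene 1.1 ST arrays, which they made with RMA (background correction, quantile normalization, summary per probe set). The build in the submitters' processing notes is rn4, and the version of RMA is not given in the sources used here. The array medians were 4.85 to 4.92 in low WSS and 4.88 to 5.00 in high WSS, and the number of arrays limits the precision.

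Probe sets were named from the platform annotation. As in the methods, probe sets needed an annotation and a mean level of at least 4, and 13383 remained (a number other than that in the methods). The regions were compared by limma 3.58.1 in R 4.3.3 (region and pair as terms, empirical Bayes, two-sided), with Benjamini-Hochberg adjustment over all probe sets. The comparison was also run on simulated data. Their noise was set below that of the arrays, so this run does not measure how well changes are found here. For the pathway and marker lists each gene was represented by its brightest single-symbol probe set. The members were all named. For the other genes named, the rule was up to 4 per pathway list with the smallest adjusted p, up to 2 that went the other way, the 3 most correlated with Nfkbia and with the member of smallest p, and up to 2 per marker list.

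The methods describe paired pools, each pair from 5 animals. That the replicate number in the titles marks the pair is taken from the labels and is not stated. The deviations of pools of 1 number from the region mean correlated at -0.012 to 0.48 (above 0.1 for 11 pairs of 14), against a mean of -0.017 between different numbers. Centring on the region mean largely fixes this last mean, so it is no independent comparison. No 2 arrays were copies, with r from 0.9792 to 0.9965. Alternatives were the paired t-test of the methods, limma without the pair or with trend and robust estimation, other filters, other scaling, covariates for cell content, pairs 4 to 14, and each pair left out. For the pathway genes, a count over every single-symbol probe set was added.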

Additional observations from a re-analysis of the deposited data

How the results depend on the processing

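The count of 3 members called was 5 with arrays quantile normalized again, 5 in pairs 4 to 14 alone, 1 with Tagln and Cnn1 as covariates and 3 to 5 when each pair was left out, and 0 members were called higher in low WSS under any alternative. The added members were Nfkb2 and Nfkbie. In the runs that left pairs out, a dropped pair had the added gene higher in low WSS, so these runs add no support for a fall. With the adipocyte covariate the count stayed at 3, with Nfkbie called and Nfkb1 not. With Tagln and Cnn1 as covariates the pathway genes called were 14, of which 7 were higher, instead of 32, and the probe sets called were 3492 instead of 5644. Without the pair as a block, 3 members, 29 pathway genes and 4856 probe sets were called, and no member changed its call. Differences near 0 changed sign without passing the test. Nfkbia had -0.012 with Tagln and Cnn1, -0.016 with the adipocyte covariate, -0.059 in pairs 4 to 14 and -0.029 to 0.042 with each pair left out. Ikbkb had 0.018 with centred arrays and 0.0074 with Tagln and Cnn1. The cause was not tested. Nfkbie, with a mean level of 5.96, could not be tested at a minimum of 6. The number of arrays and the signal over background of dim probe sets limit what can be seen, and Relb, Rel and Tnfaip3 were not analysed here.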
